A study of Mus musculus with 8 samples.

Results

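The alpha-defensin genes of the mouse small intestine were examined in organoids from mice that overexpress MG53 and from wild type mice. The family is represented by 7 genes, Defa17, Defa21, Defa22, Defa23, Defa24, Defa26 and Defa30, out of 14337 genes that had a value in the deposited tables. They were chosen as listed Defa genes with at least 1 row in any of the 8 samples, so the presence of a row and the level that set it were used for the choice. The list was also drawn up with earlier results on these samples known, so the levels below are a description, and the adjusted p of a single gene is not evidence about the family. The annotation holds 22 protein-coding Defa genes between the first and the last of the 7, of which 18 had a row. The lowest member was Defa26, with a WT mean of 3.4 FPKM, and no row was assigned to Defa25, Defa27, Defa28 or Defa29 in any sample.

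Intestinal organoids are crypt cultures that grow in a gel and hold stem cells together with their progeny. The WT group held 4 organoid samples of the wild type genotype. The MG53-TG group held 4 organoid samples from transgenic mice with global overexpression of MG53, encoded by Trim72. The paper compares MG53-TG mice with wild type littermates, but the labels do not say whether these samples came from littermates. All 8 were grown in Matrigel with the same organoid medium, and the labels give no treatment, age or sex. The groups follow the labels. In its text the paper describes the organoid transcriptome as MG53;Lgr5, the transgene crossed to an Lgr5 reporter line. A figure legend describes bulk organoid RNA as MG53-TG and WT. Whether the present samples, of either group, carry that reporter was not settled here. The promoter that drives the transgene is not given in the sources used here. The labels do not say whether the samples of a group came from separate animals, so p-values measure only the spread between these samples, which may be technical.

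Alpha-defensins, called cryptdins in the mouse intestine, are small cationic antimicrobial peptides that Paneth cells at the crypt base store in granules and release into the crypt lumen. Each is made as a precursor and is cut to its active form by the protease matrilysin, the product of Mmp7. Mouse neutrophils, unlike human ones, make no alpha-defensins. The genes arose by repeated duplication, and many copies are nearly the same in sequence.

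All 7 members have 2 exons and 93 codons before the stop, and each carries 6 cysteine codons, all in exon 2, which encodes the mature peptide with its disulfide-bonding cysteines. The coding part of exon 2 is shown for 4 members because it encodes the mature peptide and shows how near the copies are to each other. Sequences were read from the mouse annotation transcripts of build GRCm38, plus strand, at chr8:21026314-21026420 for Defa21, chr8:21163046-21163152 for Defa22, chr8:21055812-21055918 for Defa23 and chr8:21135394-21135500 for Defa30. Capitals mark in-frame cysteine codons, and the first 2 bases complete a codon begun in exon 1.
Defa21: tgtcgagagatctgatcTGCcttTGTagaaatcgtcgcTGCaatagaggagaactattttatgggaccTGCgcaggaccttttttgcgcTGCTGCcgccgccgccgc
Defa22: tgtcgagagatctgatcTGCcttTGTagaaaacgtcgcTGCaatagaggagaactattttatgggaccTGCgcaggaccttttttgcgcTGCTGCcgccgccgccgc
Defa23: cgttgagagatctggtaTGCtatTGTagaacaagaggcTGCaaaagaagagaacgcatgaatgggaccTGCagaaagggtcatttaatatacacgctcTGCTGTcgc
Defa30: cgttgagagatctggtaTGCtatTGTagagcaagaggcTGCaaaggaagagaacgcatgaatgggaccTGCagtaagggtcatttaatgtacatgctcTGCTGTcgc

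Defa21 and Defa22 differ in these 107 bases by the single substitution T32A, counted from 1 at the first base shown with the base of Defa21 first. Defa23 and Defa30 differ by 5 substitutions, A30G, A45G, A74T, A89G and C94T, with the base of Defa23 first. Over whole coding sequences, the 21 pairs of members were between 80.7% and 99.3% identical, with a median of 89.2%. Defa21 and Defa22 formed the closest pair at 99.3%, Defa24 and Defa30 were 98.6% identical, and Defa17 and Defa23 were 97.8% identical.

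The copies limit how far a read can be assigned. Defa17 has the same coding sequence as Defa3, and Defa23 the same as Defa31, both at 100% identity. How much of a transcript is found in no other gene depends on the length of the stretch compared, and the read length of these libraries is not known here. Of all stretches of 50 bases in the annotated transcript, 71.9% were found in no other gene for Defa24, 59.8% for Defa26 and 47.6% for Defa30, and with stretches of 100 bases these shares were 100%, 98.9% and 99.7%. For Defa21 and Defa22 the shares were 27.1% and 25.1% at 50 bases, and 59.6% and 59.7% at 100 bases, where they share stretches only with each other. For Defa23 and Defa17 they were 5.25% and 8.05% at 50 bases, and 10.9% and 9.4% at 100 bases, where Defa23 shares with Defa31 and Defa17 mainly with Defa3. The levels of all 7 members are therefore uncertain as single-gene values, those of Defa17 and Defa23 at every length compared, and the sum over the family is given beside them.

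The genes lie within 710 kb of chromosome 8, chr8:21025545-21735471 in GRCm38, with Defa21 at the low end and Defa24 at the high end. Upstream sequence, credited to RefSeq on build GRCm38.p6, was matched for 4 of the 7 members, Defa21, Defa22, Defa23 and Defa30. The 250 bases before the start are printed for Defa21, chr8:21025295-21025544, and Defa23, chr8:21054790-21055039, both on the plus strand, because members with different promoters were low together. Capitals mark the letters TATAAA, a core TATA box, and CTTTGA or its reverse complement TCAAAG, the core of sites that Wnt-responsive Tcf proteins can bind, searched on both strands.
Defa21: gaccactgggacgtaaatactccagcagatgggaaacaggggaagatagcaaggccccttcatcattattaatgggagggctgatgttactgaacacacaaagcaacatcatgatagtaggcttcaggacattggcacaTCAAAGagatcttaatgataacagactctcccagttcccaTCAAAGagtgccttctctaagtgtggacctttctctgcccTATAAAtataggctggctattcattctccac
Defa23: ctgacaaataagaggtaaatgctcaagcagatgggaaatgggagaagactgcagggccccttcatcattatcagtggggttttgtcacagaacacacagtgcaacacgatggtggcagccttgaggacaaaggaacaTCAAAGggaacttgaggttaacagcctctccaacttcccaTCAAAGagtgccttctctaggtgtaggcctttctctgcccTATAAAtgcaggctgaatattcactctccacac

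The stretch of Defa22 was 100% identical to that of Defa21, and Defa23 was 78.3% identical to both. TATAAA occurred once in each of the 4 stretches, 31 bases before the RefSeq start in Defa21 and Defa22, 33 in Defa23 and 61 in Defa30. The stretches end at chr8:21055039 in Defa23 and chr8:21134649 in Defa30. The annotation used elsewhere in the text starts these 2 genes at chr8:21055047 and chr8:21134642, so these distances depend on the start taken. CTTTGA occurred at 2 places in Defa21, Defa22 and Defa23 and at 1 place in Defa30. Among 27025 promoters of the same length, 13% held TATAAA and 14% held CTTTGA. These matches describe letters and not bound sites.

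Expression was read as FPKM, in which a transcript's fragments are divided by its length and by the library's mapped reads, so that levels of different genes can be set side by side. The deposited tables list transcript events, and a gene's value is the sum over its transcription start rows, or over its transcription end rows where their mean was higher. Trim72, the gene of the transgene, had no row in any WT sample and read 16.4, 27.4, 31.9 and 36.5 FPKM in the 4 MG53-TG samples. The summed FPKM of all start rows lay between 269837 and 273797 in WT and between 269094 and 284330 in MG53-TG, and read depth is unknown because the tables hold no counts. Of 11071 genes whose mean reached 0.5 FPKM, 4901 passed limma at an adjusted p of 0.05, of which 64.8% were lower in MG53-TG. The median log2 difference over all tested genes was -0.17 as deposited and -0.01 after median-of-ratios scaling, which made 49.8% of the called genes lower, so small differences depend on the scaling.

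Alpha-defensin RNA was far lower in MG53-TG organoids. The FPKM of the 7 members summed to 873, 908, 868 and 1084 in the 4 WT samples and to 61.0, 93.8, 48.5 and 60.5 in the 4 MG53-TG samples. The lowest WT sum was 9.26 times the highest MG53-TG sum. The means were 933 ± 102 FPKM in WT and 66.0 ± 19.4 FPKM in MG53-TG (SD, n = 4 each), a 14.1-fold difference that leaves 7.07% of the WT level. With all 18 Defa genes of the cluster that had a row, the sums were 1195 ± 142 and 80.6 ± 24.0 FPKM (SD, n = 4 each), a 14.8-fold difference. In bulk organoid RNA, fewer Paneth cells and less defensin RNA per Paneth cell cannot be told apart.

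**Figure D1:**
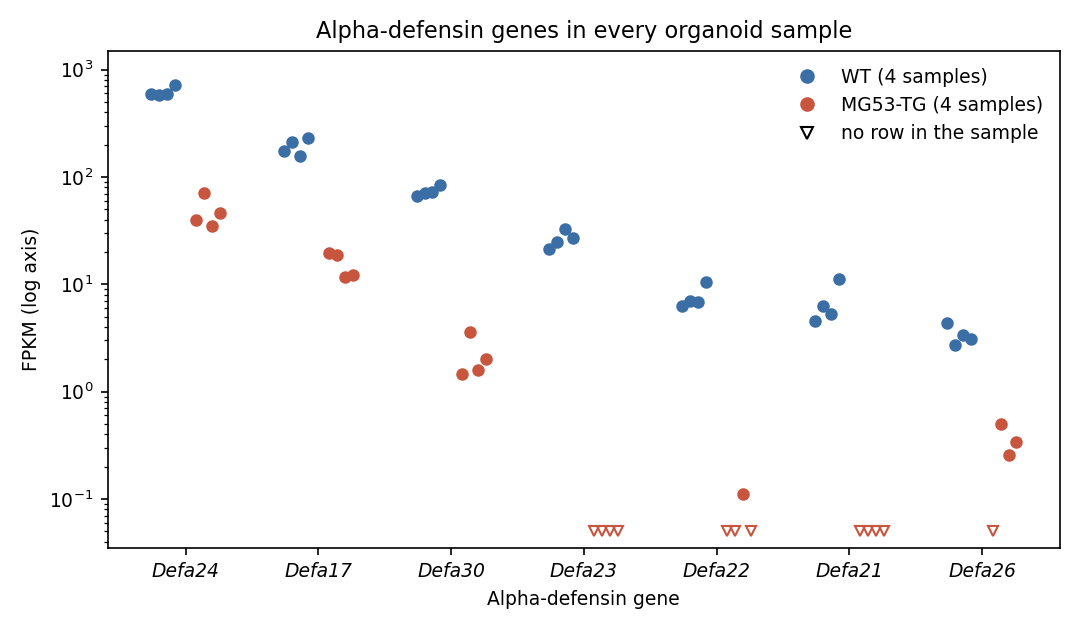
FPKM on a log axis of the 7 alpha-defensin genes in each of 4 WT (blue) and 4 MG53-TG (red) samples, with open triangles for a sample in which the gene had no row. For each gene the WT samples lie above all MG53-TG samples, and Defa21 and Defa23 had no row in any MG53-TG sample.

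Defa24 was the most abundant member. It read 596, 586, 589 and 716 FPKM in WT, where it stood between rank 42 and rank 60 among all genes. In MG53-TG it read 40.1, 70.9, 35.0 and 46.1 FPKM, between rank 684 and rank 1349. The groups did not overlap, WT 4 was the highest sample and MG53-TG 2 the highest of its group. The mean was 12.9-fold higher in WT, and the difference of mean log2(FPKM + 1), on which all log2 values below are given as MG53-TG minus WT, was -3.71 (SE 0.20, limma adjusted p = 4.06e-06).

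Defa17 followed with end row values of 174, 211, 158 and 231 FPKM in WT and 19.4, 18.8, 11.6 and 12.1 FPKM in MG53-TG. The highest MG53-TG sample was thus 8.13 times below the lowest WT sample. Its mean was 12.5-fold higher in WT, with a log2 difference of -3.58 (SE 0.20, limma adjusted p = 5.25e-06). Defa3, whose coding sequence is the same, read between 156 and 223 FPKM in WT and between 8.41 and 17.5 FPKM in MG53-TG, which is close to Defa17 in both groups. The only start row filed under Defa17 was in WT 1, at 72.0 FPKM, and lay 72.8 kb before the annotated start of the gene. That row overlaps the annotated first exon of Defa28 and was deposited under the same locus as the Defa17 end row. The Defa17 value may therefore rest on a transcript that reaches another Defa gene. With start rows alone the call on Defa17 was therefore lost (limma adjusted p = 0.363, range over its alternatives 2.87e-06 to 0.363).

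Defa30 was the member with the widest difference among those that had a row in every sample. Its end row read 66.8, 70.7, 72.7 and 84.9 FPKM in WT against 1.47, 3.57, 1.59 and 2.0 FPKM in MG53-TG. No WT sample came near the MG53-TG range. The mean was 34.2-fold higher in WT and the log2 difference -4.60 (SE 0.19, limma adjusted p = 1.10e-06). Its row carries the identifier of Defa31 in the tables and was assigned to Defa30 because it covers exactly the annotated exon 2 of Defa30. In the deposited tables this end row, the start row of Defa23 and the start row of Defa31 belong to 1 merged locus, so the values of these genes may rest on shared transcripts. Without Defa23 and Defa30, a choice made after seeing the data, the family sum was 833 ± 94.6 FPKM in WT and 63.8 ± 18.5 FPKM in MG53-TG (SD, n = 4 each), a 13.1-fold difference.

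Defa23 read 21.2, 24.8, 33.0 and 27.2 FPKM in WT and had no row in any MG53-TG sample. Its start row also carries the Defa31 identifier, begins at the annotated start of Defa23 and stops 124 bases before the annotated end of the first exon. The log2 difference was -4.77 (SE 0.14, limma adjusted p = 1.55e-07) with the MG53-TG samples taken as 0. Values set to 0 have no spread, so this SE and adjusted p hold no measured spread of MG53-TG. With 0.1 FPKM added before the log it was -8.04, so the size of the difference depends on the amount added. No fold is given against a group without rows. Defa31 itself, from its own start row, read between 8.24 and 16.0 FPKM in WT and between 0.262 and 0.462 FPKM in MG53-TG.

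Defa22 and Defa21, the pair with the same upstream stretch, had similar levels. Defa22 read 6.21, 7.03, 6.80 and 10.5 FPKM in WT, and in MG53-TG it had a row only in MG53-TG 3, at 0.112 FPKM. Defa21 read 4.55, 6.34, 5.28 and 11.1 FPKM in WT and had no row in MG53-TG. For both genes WT 4 was the highest sample. The log2 difference was -3.05 for Defa22 (SE 0.16, limma adjusted p = 3.86e-06) and -2.90 for Defa21 (SE 0.23, limma adjusted p = 3.03e-05). With 0.1 FPKM added before the log, the differences were -5.97 for Defa22 and -6.02 for Defa21. The size of both differences thus depends on the amount added. MG53-TG samples without a row were taken as 0, so the SE and adjusted p of both genes rest in part on set values.

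Defa26 was the lowest member, at 4.39, 2.73, 3.37 and 3.10 FPKM in WT. It had no row in MG53-TG 1, which was taken as 0, and read 0.497, 0.254 and 0.341 FPKM in the other MG53-TG samples. The log2 difference was -1.79 (SE 0.17, limma adjusted p = 8.39e-05), and the added 1 FPKM compresses the differences of genes at this level. With 0.1 FPKM added the log2 difference of Defa26 was -3.47.

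Each of the 7 members was thus called lower in MG53-TG, against a background of 28.7% of all tested genes. The groups did not overlap, with MG53-TG lower, for 7 of 7 members and for 28.7% of all tested genes. The 4 members Defa21, Defa22, Defa23 and Defa26 passed the filter on low values only through WT, so these counts are no support for the family as a whole. The median log2 difference of the members was -3.58, beside -0.17 over all tested genes. By an exact permutation test over the 70 relabellings, two-sided, each member had p = 0.0286, the smallest this design can give.

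The order of levels began alike in both groups. In WT it ran Defa24, Defa17, Defa30, Defa23, Defa22, Defa21 and Defa26, and only Defa22 and Defa21 had ranges that overlapped, with Defa22 higher in 3 of 4 samples. In MG53-TG it began Defa24, Defa17, Defa30 and Defa26 with no overlap between those 4. Within WT the coefficient of variation ranged from 10.1% for Defa24 and 10.6% for Defa30 to 43.0% for Defa21. WT 4 held the highest WT value for 5 of the 7 members, the exceptions being Defa23 and Defa26.

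**Figure D2:**
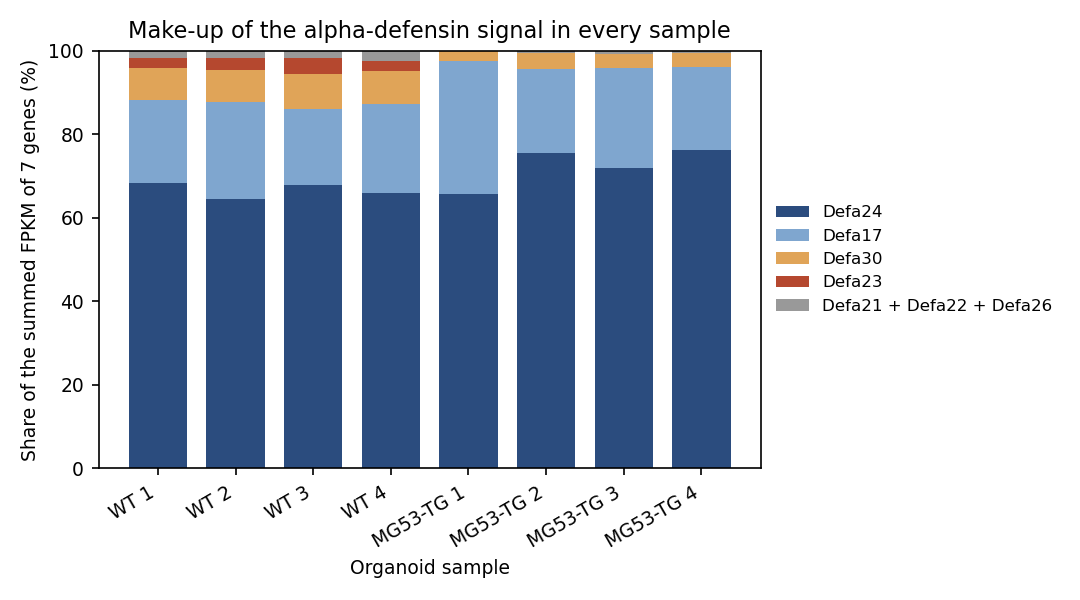
Share of the summed FPKM of the 7 genes that each gene contributed in every sample, as stacked bars that reach 100%. Defa24 and Defa17 fill most of each bar, and the share of Defa30 is between 7.65% and 8.38% in WT and between 2.41% and 3.81% in MG53-TG.

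The make-up of the remaining signal differed for some members. Defa24 contributed between 64.5% and 68.3% of the sum in WT and between 65.8% and 76.2% in MG53-TG, ranges that overlap. Defa17 contributed 18.2% to 23.2% in WT and 19.9% to 31.8% in MG53-TG, again with overlap, the highest share being in MG53-TG 1. Defa30 held 7.65% to 8.38% of the sum in WT but 2.41% to 3.81% in MG53-TG, with no overlap. For every 100 FPKM of Defa24, Defa30 had 11.2, 12.1, 12.3 and 11.9 FPKM in WT and 3.67, 5.04, 4.55 and 4.33 FPKM in MG53-TG. Defa17 on the same scale had 29.1, 36.0, 26.8 and 32.3 FPKM in WT and 48.4, 26.5, 33.2 and 26.2 FPKM in MG53-TG, so its ratio to Defa24 did not separate the groups. Defa26 had 0.737, 0.466, 0.571 and 0.434 FPKM per 100 of Defa24 in WT and 0.701, 0.726 and 0.740 FPKM in the 3 MG53-TG samples with a row. These shares come from the same samples as the choice of members and were not tested.

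**Figure D3:**
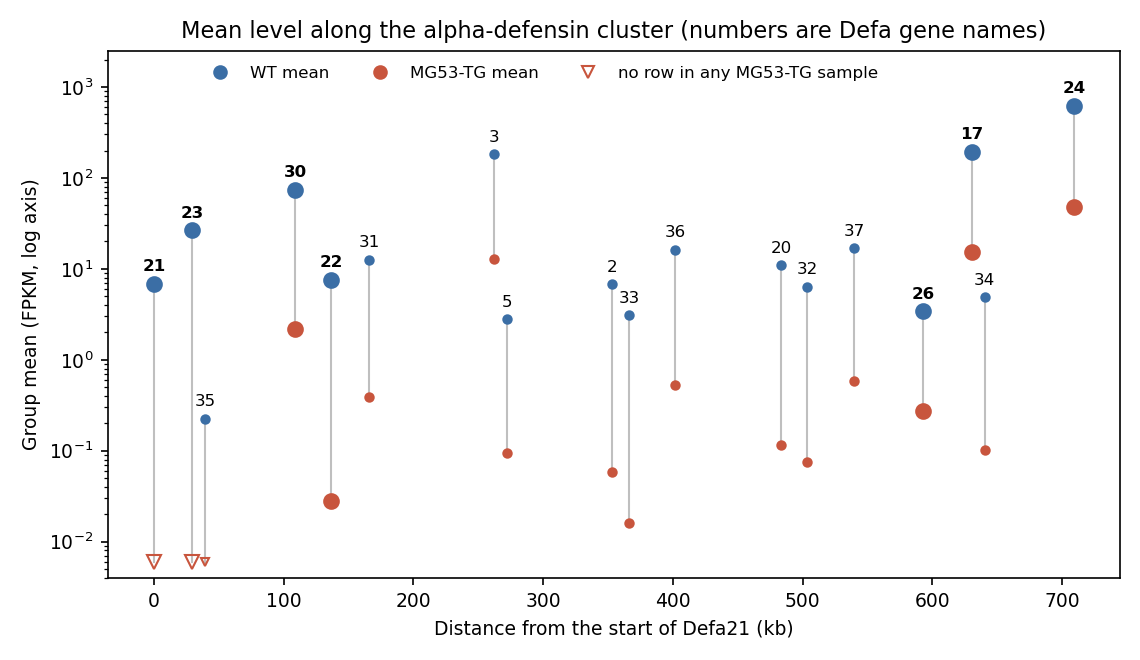
Group mean FPKM on a log axis of the 18 Defa genes with a row, by distance in kb from the start of Defa21, with WT in blue, MG53-TG in red, large symbols for the 7 members and open triangles for genes with no row in any MG53-TG sample. Each WT mean lies above its MG53-TG mean from one end of the cluster to the other.

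The other Defa genes of the cluster had lower levels in MG53-TG as well. Of 11 further Defa genes with a row, 10 could be tested and 10 were called lower by limma, beside 28.7% of all tested genes, with log2 differences between -3.77 and -1.79. Since 7 of these 10 passed the filter on low values only through WT, the count is no support for a shift of the cluster. Defa3 differed by -3.77 (SE 0.21, limma adjusted p = 5.81e-06). Defa36 read between 14.1 and 21.3 FPKM in WT and between 0.156 and 0.674 FPKM in MG53-TG, and Defa37, with the same coding sequence, between 14.3 and 23.2 and between 0.195 and 1.05 FPKM. Defa20 was 94.0-fold and Defa32 83.8-fold higher in WT, from MG53-TG levels of at most 0.187 and 0.124 FPKM. Defa2, Defa33, Defa5 and Defa34 each had no row in at least 2 MG53-TG samples and read between 1.93 and 8.86 FPKM in WT. Defa35, below the filter, read 0.1 to 0.327 FPKM in WT and had no row in MG53-TG. Most of these copies share sequence with one another, so their separate values are uncertain.

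Outside this group, Gm15292 and the pseudogenes Defa-ps6 and Defa-ps1 lie in the same interval and did not exceed 0.156 FPKM in any sample. Among beta-defensin genes, which encode a related peptide family of many epithelia, Defb1 read 0.183 and 0.108 FPKM in MG53-TG 2 and MG53-TG 3 and Defb6 read 0.468 FPKM in MG53-TG 4, with no row in any other sample.

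Genes that act with alpha-defensins in Paneth cells were taken from a list of 48, of which 38 could be tested. limma called 22 of them lower and 5 higher, beside 28.7% lower and 15.6% higher among all tested genes, with a median log2 difference of -0.46 beside -0.17. After median-of-ratios scaling 16 were called lower and 7 higher, beside 20.2% lower and 20.4% higher among all tested genes. The 6 lower calls lost were Clps, Efnb1, Lyz1, Rab27a, Ripk2 and Tcf7l2, and the calls gained as higher were Atg5 and Chrm3. The calls on these 6 and on Ephb2 and Sox9 were also lost when some single samples were left out.

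**Figure D4:**
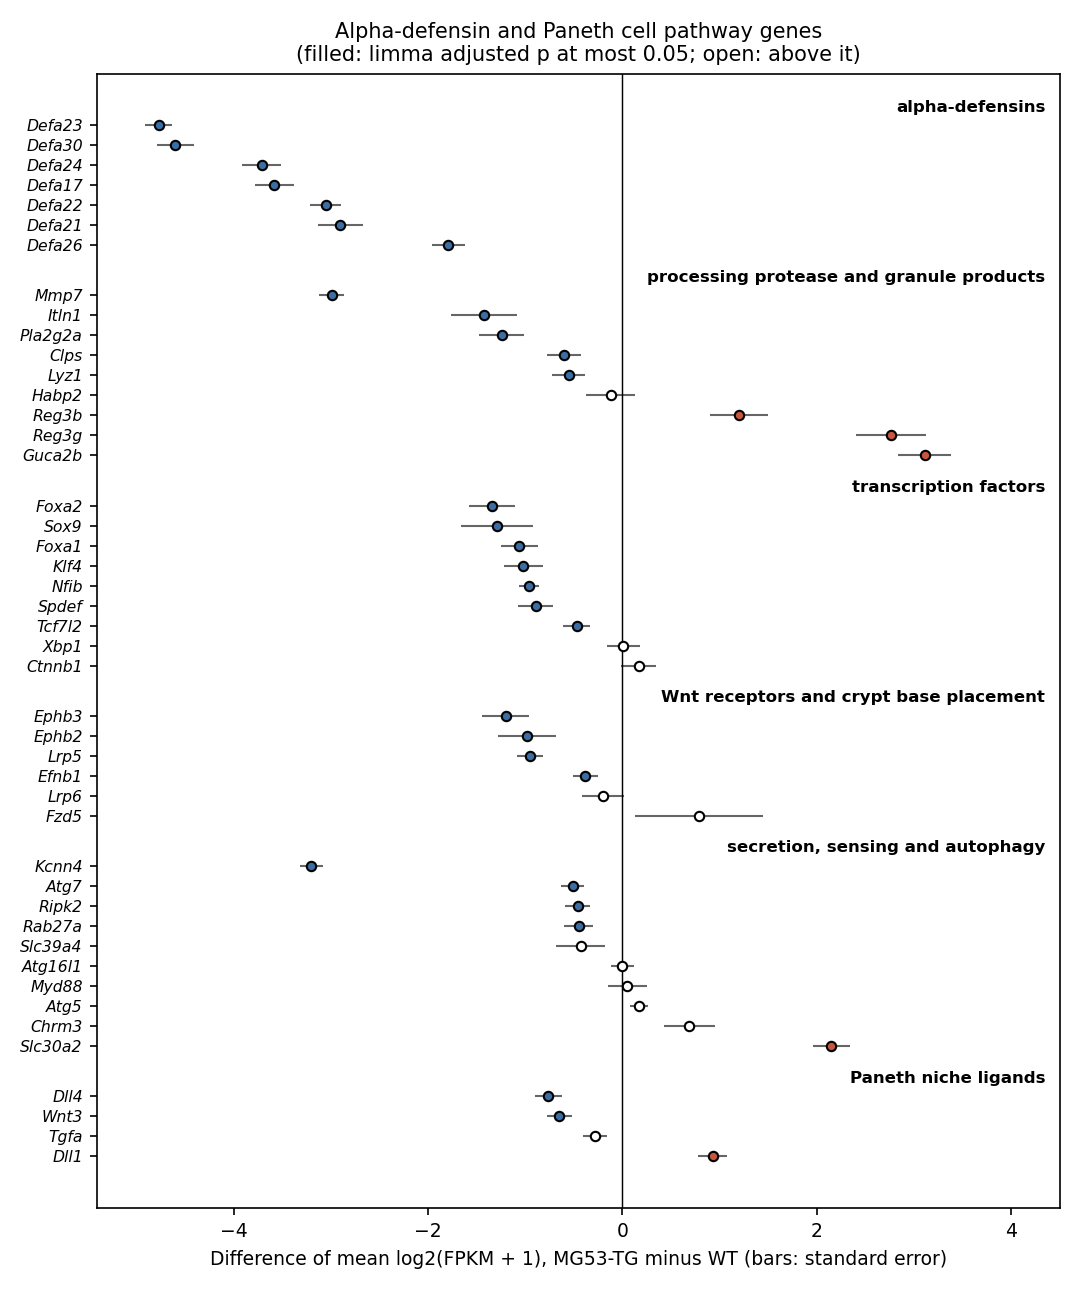
Difference of mean log2(FPKM + 1), MG53-TG minus WT, with standard error bars (4 samples per group), for the 7 alpha-defensin genes and the 38 tested genes of the pathway list, grouped by role and filled where limma's adjusted p is at most 0.05. Among the listed genes, Mmp7 at -2.99 and Kcnn4 at -3.20 are nearest to the alpha-defensins, and Guca2b at 3.11 is the highest.

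Mmp7, the protease that activates alpha-defensins, read 25.3, 23.8, 21.9 and 25.6 FPKM in WT and 1.88, 1.76, 2.74 and 2.39 FPKM in MG53-TG. The groups lay far apart, with a log2 difference of -2.99 (SE 0.13, limma). Lyz1, the lysozyme of Paneth cells, read 279, 263, 273 and 329 FPKM in WT and 222, 258, 158 and 159 FPKM in MG53-TG, a log2 difference of -0.55 (SE 0.17) that passed limma at an adjusted p of 0.0280 but not under 7 of its 21 alternatives, 5 of which leave out 1 sample (limma adjusted p between 0.00674 and 0.0756 over all 21). Itln1, a lectin, was lower by a log2 difference of -1.42. Pla2g2a, a phospholipase gene annotated as a polymorphic pseudogene, was lower by -1.24, with MG53-TG 3, where it had no row, taken as 0. Reg3g and Reg3b, antibacterial lectins that enterocytes also make, were called higher, with log2 differences of 2.76 and 1.20. Guca2b, the hormone uroguanylin, was higher as well, by a log2 difference of 3.11. The tables held no row for Ang4 or Mptx2.

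The amount of alpha-defensin RNA relative to these products depended on the product. Per FPKM of Lyz1, the family sum was 3.12, 3.45, 3.18 and 3.29 in WT and 0.275, 0.364, 0.308 and 0.380 in MG53-TG, without overlap. Per FPKM of Mmp7 it was 34.5, 38.2, 39.6 and 42.4 in WT and 32.4, 53.2, 17.7 and 25.3 in MG53-TG, and these ranges overlap.

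Transcription factors of the secretory lineage and of Paneth cells gave 7 lower and 0 higher calls among 9 tested, beside 28.7% lower and 15.6% higher among all tested genes. The lower calls were 6 after median-of-ratios scaling, without Tcf7l2, and 5 when MG53-TG 3 was left out, without Sox9 and Tcf7l2. Sox9, which is needed to form Paneth cells, read 16.6, 14.7, 16.5 and 15.5 FPKM in WT and 10.4, 10.4, 3.59 and 2.70 FPKM in MG53-TG, a log2 difference of -1.29 (SE 0.37, limma adjusted p = 0.0203) that was lost without MG53-TG 3 (limma adjusted p = 0.055, range over its alternatives 0.00851 to 0.055). Spdef, a factor of goblet and Paneth cells, was lower at -0.89 and Klf4 at -1.02. Foxa2 was lower at -1.34, with MG53-TG 3 and MG53-TG 4, where it had no row, taken as 0. Foxa1 was lower at -1.06 from a fit without WT 1, MG53-TG 3 and MG53-TG 4, where it had no row. The call on Foxa1 was lost when absent genes were always set to 0, although the log2 difference was then -1.31 (limma adjusted p = 0.223). It was also lost with the replicate block, at -0.74 (limma adjusted p = 0.173). Over its alternatives the limma adjusted p of Foxa1 ran from 0.00671 to 0.223. Nfib was lower at -0.96. Tcf7l2, the Wnt effector that acts on defensin promoters, differed by -0.47 (limma adjusted p = 0.0237). Its partner Ctnnb1 differed by 0.17 (SE 0.18) and Xbp1, a secretory stress factor, by 0.01 (SE 0.17), neither called. Atoh1 had no row.

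Among receptors and placement genes, 4 of 6 were called lower, beside 28.7% of all tested genes. Ephb2 and Efnb1 were both lost without WT 2, WT 3, MG53-TG 3 or MG53-TG 4, which left 2 lower calls in each case. Ephb3, which holds Paneth cells at the crypt base, had a log2 difference of -1.20, Ephb2 of -0.98 and the Wnt co-receptor Lrp5 of -0.95. Fzd5, the Wnt receptor of Paneth cells, had a row only in MG53-TG 3, at 7.95 FPKM. In secretion, sensing and autophagy, 4 of 10 were called lower and 1 higher, beside the same 28.7% and 15.6% among all tested genes. Rab27a and Ripk2 were lost after median-of-ratios scaling, which gave 2 lower and 3 higher calls, and they were also lost without WT 3 or without MG53-TG 3, which left 2 lower calls. Kcnn4, a calcium-gated potassium channel, read 13.7, 15.1, 15.2 and 11.5 FPKM in WT and 0.632, 0.589, 0.522 and 0.714 FPKM in MG53-TG. Its log2 difference of -3.20 (SE 0.12, limma) lay within the range of the defensins. Slc30a2, a zinc transporter, moved the other way, from 1.51, 1.11, 0.612 and 1.38 FPKM in WT to 10.1, 6.14, 9.55 and 8.39 FPKM in MG53-TG. Ripk2 and Rab27a were called lower at -0.46 and -0.45 from fits without the MG53-TG samples that had no row, and Atg7 at -0.51. Of the niche ligands, Wnt3 was lower at -0.65 and the Notch ligand Dll4 at -0.76, while Dll1 was higher at 0.93.

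**Figure D5:**
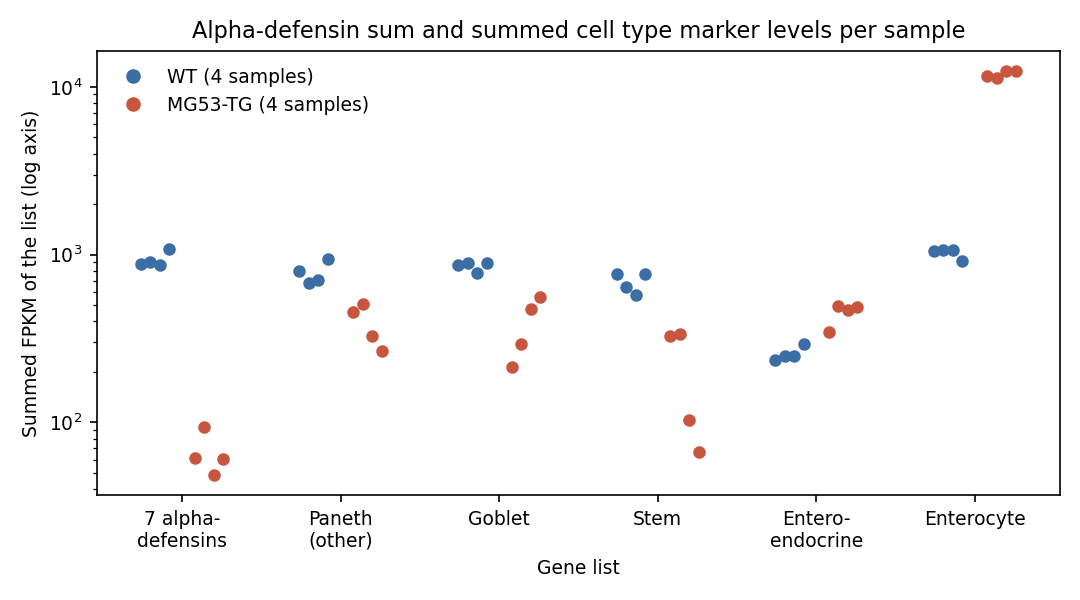
Summed FPKM on a log axis of the 7 alpha-defensins and of 5 cell type marker lists without defensins, in each of 4 WT (blue) and 4 MG53-TG (red) samples. The enterocyte sum lies between 915 and 1069 in WT and between 11233 and 12427 in MG53-TG, while the defensin, Paneth, goblet and stem cell sums are lower in MG53-TG.

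Summed marker levels of 6 cell type lists did not overlap between the groups, while those of the tuft cell, mesenchyme and neutrophil lists did. The counts of called markers stand beside 28.7% lower and 15.6% higher calls among all tested genes, or 20.2% and 20.4% after median-of-ratios scaling. Of 14 Paneth cell markers other than defensins, 12 had a row, 11 could be tested and 9 were called lower, or 8 after median-of-ratios scaling, without Lyz1. Their summed level was 675 to 937 FPKM in WT and 267 to 505 FPKM in MG53-TG. The alpha-defensin sum per FPKM of these markers was between 1.09 and 1.35 in WT and between 0.134 and 0.227 in MG53-TG. That marker sum is set mainly by its most abundant genes. The WT and MG53-TG means were 286 and 199 FPKM for Lyz1, 232 and 88 for Itln1 and 198 and 86.9 for Cd24a. Mmp7, at 24.1 and 2.19 FPKM, and Kcnn4, at 13.9 and 0.614 FPKM, add little to it. Of 10 enterocyte markers, all 10 were called higher, with a summed level of 915 to 1069 FPKM in WT and 11233 to 12427 FPKM in MG53-TG. Of 8 stem cell markers 7 were lower, and their sum was 325 and 337 FPKM in MG53-TG 1 and MG53-TG 2 but 104 and 66.5 FPKM in MG53-TG 3 and MG53-TG 4, and the defensin sums of the same samples were 61.0 and 93.8 against 48.5 and 60.5 FPKM. Of 9 goblet cell markers 8 could be tested and 6 were lower, and their sums were 781 to 894 FPKM in WT. In MG53-TG the goblet sums ran the other way from the stem cell sums, at 214 and 292 FPKM in MG53-TG 1 and MG53-TG 2. They were 472 and 559 FPKM in MG53-TG 3 and MG53-TG 4. Without MG53-TG 1 a goblet marker was called higher, with 6 still called lower. Of 8 enteroendocrine markers 7 could be tested, and 3 were higher and 0 lower, with sums of 237 to 295 FPKM in WT and 344 to 494 FPKM in MG53-TG. Their median log2 difference was 0.01, and the sum leans on Chgb, the most abundant, at 96.9 FPKM in WT and 256 FPKM in MG53-TG on average. Of 6 tuft cell markers 1 could be tested and was not called, and of 7 mesenchyme markers 3 could be tested and 2 were called higher, with sums of at most 2.85 and 5.58 FPKM. Without MG53-TG 3 the tuft cell marker was called lower. The mesenchyme calls, Col1a2 and Col3a1, had no row in MG53-TG 1 or in any WT sample. They came from a fit without MG53-TG 1, and they could not be tested without MG53-TG 2, MG53-TG 3 or MG53-TG 4, with start rows alone or with absent genes always at 0. The 1 mesenchyme marker still tested without MG53-TG 4, Vim, was then called lower. Of 7 immune markers 4 had a row and 1 could be tested, which was called lower, with sums of 3.77 to 9.24 FPKM in WT and 0.609 to 1.47 FPKM in MG53-TG. Of 8 neutrophil markers, Mpo, Elane, Ngp and Camp had no row and the others summed to at most 2.26 FPKM. The part of these shifts in the lower alpha-defensin level was not tested.

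Among 10683 genes compared over the 8 samples, with the 7 members left out, the 5 whose centred log2(FPKM + 1) profile was most like that of the family sum were Defa3, Defa37, Defa36, Ndufa4l2 and Cdo1. The root mean square differences from the family profile were 0.134, 0.216, 0.263, 0.269 and 0.313. Ndufa4l2 read 12.9, 14.2, 14.9 and 15.1 FPKM in WT and had a row only in MG53-TG 3 of the other group, at 0.0508 FPKM. Cdo1 read 16.8, 16.5, 18.2 and 18.0 FPKM in WT and had no row in MG53-TG. Samples without a row were taken as 0. The measure weighs mainly the size of the group difference, which was -3.84 for the family sum, -3.91 for Ndufa4l2 and -4.20 for Cdo1. It thus shows little about likeness within a group, and Defa3 may share reads with Defa17.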

How the data were processed

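The authors deposited 1 table of transcript events per sample, with FPKM for each transcription start, transcription end and splicing event, from intestinal organoid RNA of 4 WT and 4 MG53-TG samples. Per the labels, reads were trimmed with cutadapt 1.9.1, aligned with HISAT2 2.0.1 to mm10 (GRCm38) and counted with HTSeq 0.6.1; DESeq2 is named in the submitters' processing notes. The program that made the event tables, the read length and the handling of reads with several matches are not given in the sources used here. FPKM is no count, whole reads could not be recovered (the smallest value was 1e-06) and depth is unknown, so no counting interval is given.

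Each row kept its deposited gene identifier unless its exon boundaries matched another annotated gene better (6.09% of 128369 events). The identifier alone had been planned as the assignment. The check replaced it after the rows were seen, and the identifier alone is kept as an alternative. Where a sample held no row for a gene, the value was left out if the rest of that group reached a median of 0.5 FPKM, and set to 0 if it did not. All genes whose mean reached 0.5 FPKM were tested with limma 3.58.1 (R 4.3.3, trended empirical Bayes) on log2(FPKM + 1), with Benjamini-Hochberg adjustment over 11071 genes at 0.05. limma was also run on simulated data with known changes. It recovered 75% of changes of 1 log2 unit and 96% of changes of 2, with 15 false calls among 10589 genes. In simulated data without changes it made 1 call. Single members were also tested with an exact permutation test. Sequence comparisons used Biopython 1.88.

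The members, the pathway and marker lists and the tests were chosen with earlier results of these data known. Named genes are the 7 members, other defensin genes and genes of the cluster with a row, tested pathway genes, Trim72 and the 5 genes, members left out, nearest to the family profile. Outside that rule, Ang4, Mptx2, Atoh1, Mpo, Elane, Ngp and Camp are named only as listed genes without a row. The markers Cd24a, Chgb, Col1a2, Col3a1 and Vim are named after their values were seen. Alternatives were another pseudocount (0.1), filter (none, or a mean of 2 FPKM), scaling (median-of-ratios, quantile), sample weights, the replicate block, start rows or end rows alone, the highest event, other gene assignments, absent genes always at 0 and leaving out each sample.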

Additional observations from a re-analysis of the deposited data

Results flagged for a closer look

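Within groups of 4, the following single values lay far from the other samples of their group, by a gap that exceeds Dixon's critical value for 4 samples. There were 15 such values among 112 groups searched. In 3 of them, Defa22 and Fzd5 in MG53-TG 3 and Defa33 in MG53-TG 1, the other samples had no row and were taken as 0, so the gap follows from that choice. Chance alone gives about 5.6 in 112 groups of continuous values, a number that does not hold where samples were set to 0.

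Among the alpha-defensins, Defa24 stood apart in WT 4 at 716 FPKM, and Defa22 in MG53-TG 3 at 0.112 FPKM, the only MG53-TG sample in which it had a row. Without WT 4 the log2 difference of the family sum was -3.76 and without MG53-TG 3 it was -3.71, beside -3.84 with all samples. Defa36 and Defa37 were also far higher in WT 4 than in the other WT samples, at 21.3 and 23.2 FPKM. In MG53-TG, Defa36 was low in MG53-TG 3 at 0.156 FPKM, Defa32 and Defa33 were high in MG53-TG 1 at 0.124 and 0.0638 FPKM, and Defa34 was high in MG53-TG 2 at 0.374 FPKM.

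Among the pathway genes, Fzd5 had its single row in MG53-TG 3 at 7.95 FPKM. Lrp6 was low in WT 1 at 6.27 FPKM, and without that sample it was called lower in MG53-TG by limma (log2 difference -0.45, adjusted p = 0.0127, range over its alternatives 0.0127 to 0.928). Lrp5 was high in WT 3 at 17.2 FPKM, Ripk2 in WT 3 at 1.9 FPKM and Atg16l1 in WT 2 at 8.92 FPKM. Efnb1 was low in MG53-TG 4 at 14.4 FPKM and Slc39a4 in MG53-TG 3 at 16.0 FPKM.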

How the results depend on the processing

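All 7 members were called lower under every alternative in which they could be tested except Defa17 with start rows alone, whose log2 difference was -1.55. Defa26 dropped out at a mean of 2 FPKM, Defa30 has no start row, Defa23 has no end row, and with the deposited identifier alone, first planned as the assignment and made an alternative after the data were seen, Defa23 and Defa30 have no value of their own, which left 5 members called. The log2 difference of the family sum stayed between -4.02 and -3.65. The number of genes past the threshold was 4901, between 3639 with end rows alone and 5204 without MG53-TG 2.

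The replicate numbers were not taken as pairs, since the correlation of deviations between samples of the same number was 0.1, -0.0306, 0.0940 and -0.0653 and WT 2 and WT 4 correlated better with another number. With the replicate block limma called 4444 genes, all 7 members and 23 of 27 pathway genes, without Foxa1, Lyz1, Rab27a and Ripk2. Leaving out 1 sample ended the calls on Clps (WT 1 or WT 2), Lyz1 (WT 1, WT 3, WT 4, MG53-TG 3 or MG53-TG 4), Ephb2 (WT 2, WT 3, WT 4, MG53-TG 3 or MG53-TG 4), Tcf7l2 (WT 1, WT 3 or MG53-TG 3), Ripk2 (WT 3 or MG53-TG 3), Sox9 (MG53-TG 3), Rab27a (any but MG53-TG 1 and MG53-TG 2) and Efnb1 (any but WT 4). Of 779 refits of single pathway genes, 707 kept direction and side of the threshold, 50 lost a call, 7 gained one and 15 turned sign, and the cause was not tested. The sign turned only for genes that were not called: Atg16l1 (0.16 with median-of-ratios, 0.15 with quantile scaling, -0.09 to 0.04 leaving out single samples), Ctnnb1 (-0.02 with quantile scaling), Xbp1 (-0.05 with quantile scaling, -0.08 with end rows, -0.12 to 0.11 leaving out single samples), Myd88 (-0.21 with start rows, -0.13 to 0.16 leaving out single samples) and Habp2 (-0.29 to 0.14 leaving out single samples).

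Depth is unknown, so a gene without a row is not shown to be absent.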
